A study of Mus musculus with 18 samples.

Results

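Constant lamina sequence without an H3K9me2 domain is the part of the mouse genome that lay in a Lamin B domain in embryonic stem cells (ESC) and in cardiomyocytes (CM) and in no H3K9me2 domain of either. The stretches were selected on the 4 deposited domain lists themselves. On a 1 kb grid of chromosomes 1 to 19, an unbroken run of at least 10 kb that was in both Lamin B lists and in neither H3K9me2 list counted as a stretch. This gave 184 stretches with 17.6 Mb of sequence, out of 7886 runs of at least 10 kb over all combinations of the 4 lists. The membership of a stretch in the lists is therefore its definition and was not tested. Unmarked sequence here is sequence outside every H3K9me2 domain, and constant lamina is sequence inside Lamin B domains of ESC and CM alike.

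The nuclear lamina is a meshwork of lamins under the inner nuclear membrane, and lamina-associated domains are the long chromatin segments that touch it. They are typically poor in genes, replicate late and hold mostly silent chromatin. H3K9me2, dimethylated lysine 9 of histone H3, is laid down mainly by the methyltransferases G9a and GLP, spreads over broad blocks, and is known as a common mark of chromatin at the nuclear periphery. Lamina contact and H3K9me2 usually go together, so sequence with lamina contact and no H3K9me2 block is the less common arrangement. B-type lamins are farnesylated and stay at the nuclear membrane, which makes them a usual target for mapping these domains by chromatin immunoprecipitation.

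The series comprised 18 ChIP-seq libraries, and 4 domain lists made from them were analysed. Wild-type ESC gave 2 Lamin B and 2 H3K9me2 libraries, and wild-type CM, differentiated from ESC in embryoid bodies and collected on day 10, gave the same numbers. A line of CMV-creERT; Hdac3f/f ESC, with a tamoxifen-activated Cre under the CMV promoter, had been derived from blastocysts and subcultured from single colonies. Left untreated, it was profiled with 2 libraries for each antibody. After tamoxifen at 1 µg/ml for 24 h, which deletes the deacetylase gene Hdac3, only Lamin B was profiled, again in 2 libraries. Wild-type ESC were grown without serum or feeder cells, and each of the 4 cell states had 1 input library. The labels tie the ESC Lamin B list to 6 libraries (2 wild-type, 2 floxed, 2 deleted), the ESC H3K9me2 list to 4 (2 wild-type, 2 floxed), and each CM list to 2 wild-type libraries. How many of them went into a list is not stated, so ESC may mean wild-type cells or a mixture with the Hdac3 line. The purity of the CM could not be checked against marker genes, since the lists carry no expression. No list had replicates, so no difference below has a replicate error or a test. Sequencing depth was unknown, and a missing H3K9me2 domain means that none was listed, not that the mark was absent. Coordinates are in mm9. Genes and sequences at the stretches were not analysed here, because the reference tables used a different build.

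The 184 stretches were a small share of the lamina. They made up 1.79% of the 983.2 Mb of constant lamina on the autosomes, whereas constant lamina with H3K9me2 in ESC and CM alike, in runs of at least 10 kb, made up 93.5% (919.1 Mb in 1083 runs). Constant lamina marked in CM only came to 3.84% (37.8 Mb in 556 runs), and that marked in ESC only to 0.782% (7.69 Mb in 145 runs). Lengths ranged from 10 kb to 590 kb, with a median of 53.5 kb and quartiles of 20 and 131.5 kb. Long stretches held most of the sequence. The 62 stretches of at least 100 kb held 73.9% of it, and the 10 longest held 23.2% (4.07 Mb). Unmarked stretches were longer at the median than lamina marked in CM only (40 kb) or in ESC only (30 kb), and much shorter than fully marked lamina (264 kb). A length of at least 100 kb was reached by 33.7% of them, against 20.1% of the CM-only and 15.9% of the ESC-only runs. These differences were not tested.

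**Figure D1:**
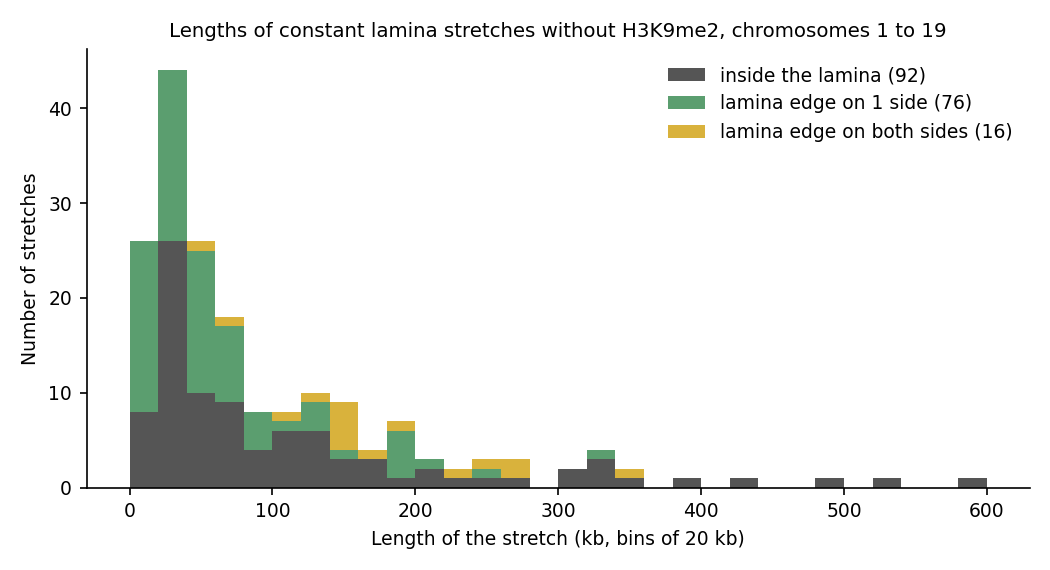
Histogram of the lengths of the 184 stretches (x axis, kb, bins of 20 kb; y axis, number of stretches), coloured by whether a stretch was bounded by H3K9me2 on each side (inside the lamina, 92), ended at a Lamin B domain edge on 1 side (76) or on both sides (16). Most stretches were short, and the 5 longest, from 380 to 590 kb, lay inside the lamina.

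At the 10 kb minimum, 9 runs had exactly 10 kb and were included, and 3 had 9 kb and were not. The first included ones were chr1:141160001-141170000, chr2:62120001-62130000 and chr3:144480001-144490000. All 3 were gaps of 1 bin between ESC H3K9me2 domains, whose edges lay on a grid of 10 kb. Those left out were chr6:148401001-148410000, chr12:102940001-102949000 and chr18:9180001-9189000, each of which ended at a Lamin B edge on 1 side. The bins of the other lists were 9 kb for ESC Lamin B, 11 kb for CM Lamin B and 20 kb for CM H3K9me2, so a boundary is known only to about a bin. In all, 88 runs below the minimum held 283 kb.

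The stretches were of 2 kinds. Of the 184, 92 (50.0%, Wilson 95% interval 42.8 to 57.2) were holes inside the lamina, with an H3K9me2 domain of ESC, CM or both directly at each end. The other 92 reached the edge of a Lamin B domain, 76 of them on 1 side and 16 on both. Such intervals treat stretches as independent and cover counting error only. Of the 368 ends of stretches, 115 were set by an ESC H3K9me2 domain alone, 72 by a CM H3K9me2 domain alone and 73 by H3K9me2 domains of both cell types starting at the same bin. Lamin B set the other 108 ends, 65 of them in CM alone, 39 in ESC alone and 4 in both cell types. In fully marked constant lamina 57.1% of runs (54.1 to 60.0) reached a lamina edge, and in lamina marked in CM only or ESC only 21.8% (18.5 to 25.4) and 30.3% (23.4 to 38.3). The order of these shares was not tested, and that of the unmarked stretches depended on the score: it was 31.4% with only the Lamin B domains at or above the median score of their list and 74.0% with only such H3K9me2 domains, settings under which the other kinds of lamina were not recomputed.

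Holes inside the lamina mostly lay in long Lamin B domains, which hold most lamina sequence in any case. The ESC Lamin B domain around them had a median length of 5580 kb (quartiles 1714 and 10910 kb) and the CM domain 5330 kb (1155 and 10360 kb). From the hole to the nearest Lamin B edge the median was 1049 kb in ESC (lower quartile 243.8 kb, lowest 11 kb) and 961.5 kb in CM (161 and 41 kb). H3K9me2 covered a median of 87.2% of the surrounding ESC domain and 92.4% of the CM domain, so most were interruptions in otherwise marked chromatin, although the domain around them was covered by as little as 45.0% in ESC and 0% in CM. The holes themselves had a median of 60 kb and together made 9.96 Mb, 56.7% of all unmarked stretch sequence.

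Relative to the lamina at hand, the stretches were denser in short blocks when holes and stretches at a lamina edge were summed. Those in blocks under 200 kb all reached a lamina edge. The Lamin B domain around a hole was at least 225 kb long in ESC and 253 kb in CM. The shares by block length were not computed for holes alone. Blocks of constant lamina of at least 3000 kb made up 58.5% of it (575.3 Mb) and held 8.72 of the 17.6 Mb of stretches, 1.52% of their sequence. In blocks under 200 kb the share was 7.63%, in those of 200 to 1000 kb 3.57%, and in those of 1000 to 3000 kb 0.685%. The share was thus lowest in blocks of 1000 to 3000 kb and did not fall steadily with length.

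The hole in the H3K9me2 coverage was usually not the same size in ESC and CM. In ESC the gap between the flanking H3K9me2 domains had a median of 70 kb, and in CM of 190 kb, over the 92 holes. The CM gap was the longer in 58 of 92, the ESC gap in 28, and the lengths were equal in 6. A gap that held more than 1 hole was counted once for each, so these medians and counts are not over separate gaps. Among all 184 stretches, 175 ESC gaps but only 147 CM gaps were involved, so sharing was more common for CM gaps. The part of this repeated counting in the values was not tested. In 42 holes the ESC gap lay within the CM gap, in 20 the CM gap lay within the ESC gap, in 25 the gaps were staggered, and in 5 they were identical. These classes take the listed edges as they stand. They count offsets no larger than a bin, which the lists do not resolve. Gaps were also longer in CM over the whole autosomal lists, with medians of 130 kb in ESC (2412 gaps) and 400 kb in CM (1121 gaps), and the shortest gap was 1 bin in each list, 10 kb in ESC and 20 kb in CM. The part of the bin width in these lengths was not tested.

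The longest hole was chr9:7550001-8140000, 590 kb. It lay in an ESC Lamin B domain of 9630 kb and a CM domain of 10164 kb. The ESC gap in H3K9me2 was 680 kb and the CM gap 600 kb. On the left their borders were 10 kb apart, less than the CM bin, and on the right the ESC gap ran 90 kb beyond the hole. H3K9me2 covered 77.3% of that ESC Lamin B domain and 87.1% of its CM counterpart. The hole was thus a shared one with an offset right border, 4013 kb from the edge of the lamina in ESC and 4547 kb in CM.

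The next in length was chr10:33640001-34160000, 520 kb, bounded at each end by CM H3K9me2, with an ESC gap that was 50 kb wider on either side (620 kb). At chr4:21590001-22080000, 490 kb, the ESC gap matched the hole and the CM gap was 500 kb, a difference of less than the CM bin. The Lamin B domain around it was the longest among the 10 longest stretches, at 15192 kb in ESC and 19217 kb in CM. At chr7:99700001-100120000, 420 kb, both cell types shared the left border, while the CM gap ran on to 540 kb. At chr15:41430001-41810000, 380 kb, ESC H3K9me2 set both borders and the CM gap was 560 kb. In these 4 holes the gap was longer in ESC on chromosome 10, nearly equal on chromosome 4, and longer in CM on chromosomes 7 and 15.

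Of the 10 longest stretches, 8 were such holes, and their Lamin B domains were all over 5 Mb long in ESC and CM. By the authors' score, a value per domain, these host domains stood at percentiles 94.0 to 98.4 of the ESC list and 92.1 to 98.9 of the CM list. The score went with length: its median over ESC domains without a stretch was 4.23 at 100 to 200 kb and 103 above 1000 kb. The remaining holes among them were chr2:48660001-49000000 (340 kb), chr10:50310001-50640000 (330 kb) and chr12:65990001-66320000 (330 kb), with ESC gaps of 350, 350 and 390 kb and CM gaps of 340, 340 and 400 kb. In these 3 the ESC and CM gaps differed by no more than 10 kb in length, below the bin of the CM list, but on chromosome 12 they were shifted, ESC H3K9me2 starting 60 kb beyond the right end of the hole and CM H3K9me2 stopping 70 kb before its left end. The hole on chromosome 2 was nearest to the lamina edge, at 167 kb in ESC and 181 kb in CM.

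The other 2 of the 10 longest touched the edge of the lamina. The stretch chr3:66807001-67149000 (342 kb) was an entire ESC Lamin B domain with no H3K9me2 in it, whereas in CM the same place was part of a longer Lamin B domain of 1177 kb with 60.8% H3K9me2 coverage. The stretch chr2:105534001-105860000 (326 kb) was the left end of a Lamin B domain that began at the same base in ESC and CM and was 720 kb long in ESC and 726 kb in CM. H3K9me2 covered 53.3% of that domain in ESC and 55.1% in CM, from the same bin onward. Here the lamina border was at the same place in both cell types, and the first H3K9me2 domain inside it began 326 kb further in. Outside the border, an H3K9me2 domain of each cell type ended 94 kb away. The stretch was thus part of a gap of 420 kb in ESC and CM that spanned the border.

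**Figure D2:**
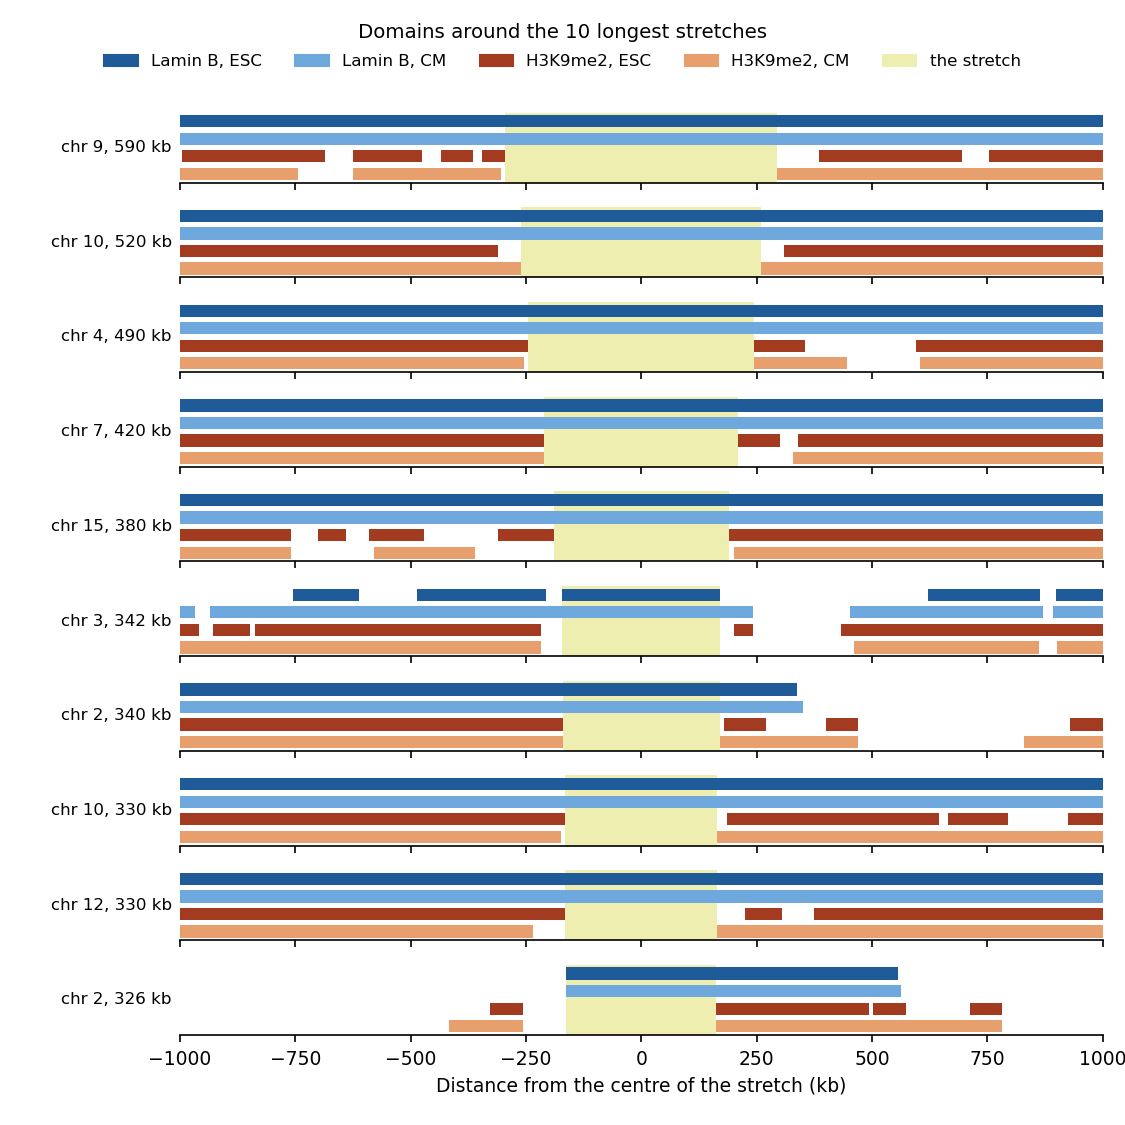
Domains of the 4 lists within 1000 kb of the centre of each of the 10 longest stretches (x axis, distance from the centre in kb; rows, stretches by length; dark and light blue, Lamin B in ESC and CM; dark red and orange, H3K9me2 in ESC and CM; yellow, the stretch). In 8 rows the blue bars run across the stretch and the red and orange bars break off at or near its borders.

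A smaller set was blocks of constant lamina, each an overlap of an ESC and a CM Lamin B domain, with no H3K9me2 within the overlap. Of the 718 blocks of constant lamina, 16 (2.23%, Wilson 1.38 to 3.59) were unmarked over their whole length, with a median of 151 kb and a range of 44 to 342 kb. They were short beside the blocks that held no stretch, whose median was 462 kb. In 7 cases the entire Lamin B domain was at least 100 kb long in each cell type and held no H3K9me2 of either. In the rest of the 16, the Lamin B domain of 1 cell type ran on beyond the block and carried H3K9me2 of that cell type. There it covered 18.09% to 85.05% of the domain, so these blocks were parts of partly marked lamina. At chr1:159071001-159335000 the ESC domain of 279 kb and the CM domain of 264 kb shared 264 kb, and the nearest H3K9me2 domain lay 155 kb away in ESC and 165 kb away in CM. At chr1:178959001-179179000, 288 kb in ESC and 220 kb in CM, H3K9me2 began 211 kb away in ESC and 221 kb away in CM. The block at chr15:39204001-39465000 stood farthest from the mark, with 545 kb to the nearest ESC and 555 kb to the nearest CM domain. Its Lamin B domain was 270 kb in ESC and 286 kb in CM. These 3 were islands of lamina contact in sequence without H3K9me2 domains, found in both cell types. They were uncommon, as 7 of the 184 stretches lay at least 100 kb from any H3K9me2 domain. By definition, every stretch outside the 16 blocks, 168 in all, touched such a domain.

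The other 4 were chr4:109431001-109611000 (180 kb), chr11:21915001-22088000 (173 kb), chr6:149364001-149512000 (148 kb) and chr13:105435001-105578000 (143 kb). Not all of them were remote from the mark: H3K9me2 of CM lay 35 kb from the chromosome 11 stretch. The chromosome 13 domain had the same start in ESC and CM and ends 1 kb apart. On chromosome 6 no H3K9me2 domain was listed between the stretch and the end of the chromosome in either cell type. Lamin B scores of the 7 domains lay at percentiles 12.1 to 49.2 of the ESC list and 23.5 to 49.8 of the CM list. All 7 were thus below the middle of either list, in which the score follows length.

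**Figure D3:**
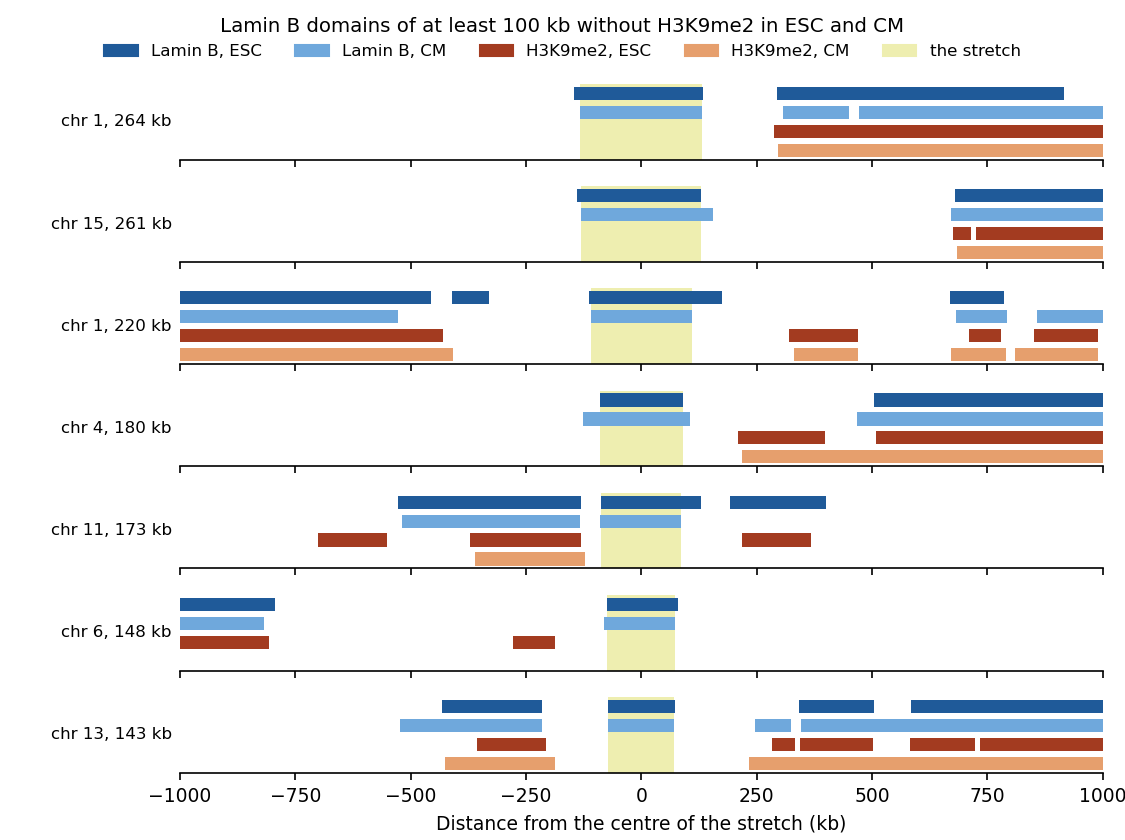
Domains of the 4 lists within 1000 kb of the 7 unmarked Lamin B domains of at least 100 kb (x axis, distance from the centre of the shared block in kb; dark and light blue, Lamin B in ESC and CM; dark red and orange, H3K9me2 in ESC and CM; yellow, the shared block). In each row the central ESC and CM bars of Lamin B overlap, and no red or orange bar lies within those central bars. Neighbouring Lamin B domains in the window can carry H3K9me2.

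Within a class of length of 200 to 500 kb, Lamin B domains that were mostly unmarked had median scores close to those of domains without a stretch. Among ESC domains of 200 to 500 kb, 12 had at least 50% of their length in the stretches, and their median score was 7.97 (quartiles 6.49 and 11.1). The 176 ESC domains of that length without a stretch also had a median of 7.97 (5.82 and 11.7), with a median H3K9me2 coverage of 100%, against 8.12% in the 12. In CM the medians were 10.6 (6.45 and 13.6) for 10 mostly unmarked domains and 10.7 (7.21 and 15.7) for 197 domains without a stretch. For CM domains of 100 to 200 kb they were 5.42 (8 domains) and 4.97 (165 domains). Mostly unmarked domains had the lower median in ESC at 100 to 200 kb (4.05 in 3 domains, 4.23 in 111). The same held in ESC at 50 to 100 kb (3.22 in 1, 3.67 in 29) and in CM at 500 to 1000 kb (27.4 in 2, 30.5 in 112). Length was not matched within a class. At 200 to 500 kb the median lengths were 265.5 and 301.5 kb in ESC and 264 and 308 kb in CM. The score is the authors' own, on a scale that is not stated, and it was compared only within a list and without a test.

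Constant lamina without ESC H3K9me2 came to 55.4 Mb in 668 runs of at least 10 kb, and 31.8% of its sequence was also unmarked in CM. Over all constant lamina of the autosomes the share unmarked in CM was 2.63%. Both shares include the stretches and use the lists that defined them, so they describe the selection. Their difference was not tested. Of the 668 runs, 463 lay wholly in CM H3K9me2 domains, 117 lay wholly outside them, and the rest were divided. The share of sequence unmarked in CM was higher for long runs, at 19.2% for runs of 10 kb to under 20 kb, 20.6% from 20 kb, 22.7% from 50 kb, 35.0% from 100 kb and 37.9% from 200 kb. The share of runs unmarked in CM from end to end had no such order (16.2%, 16.3%, 15.9%, 24.5% and 17.6%). The CM list had wider bins, and a run shorter than a CM bin of 20 kb can be lost in it.

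Constant lamina without CM H3K9me2 came to 25.3 Mb in 214 runs. Of its sequence, 69.6% was also unmarked in ESC, against 5.71% of all constant lamina, again in the lists that defined the stretches. Both shares, 31.8% and 69.6%, count the same 17.6 Mb, and they differ because CM H3K9me2 left less lamina unmarked than ESC H3K9me2 did; their difference is no separate result. That share was 41.9% in the shortest class and 73.4% in runs of 200 kb and over, and 75.8%, 54.5% and 68.7% in the classes between them, so it did not rise steadily with length.

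**Figure D4:**
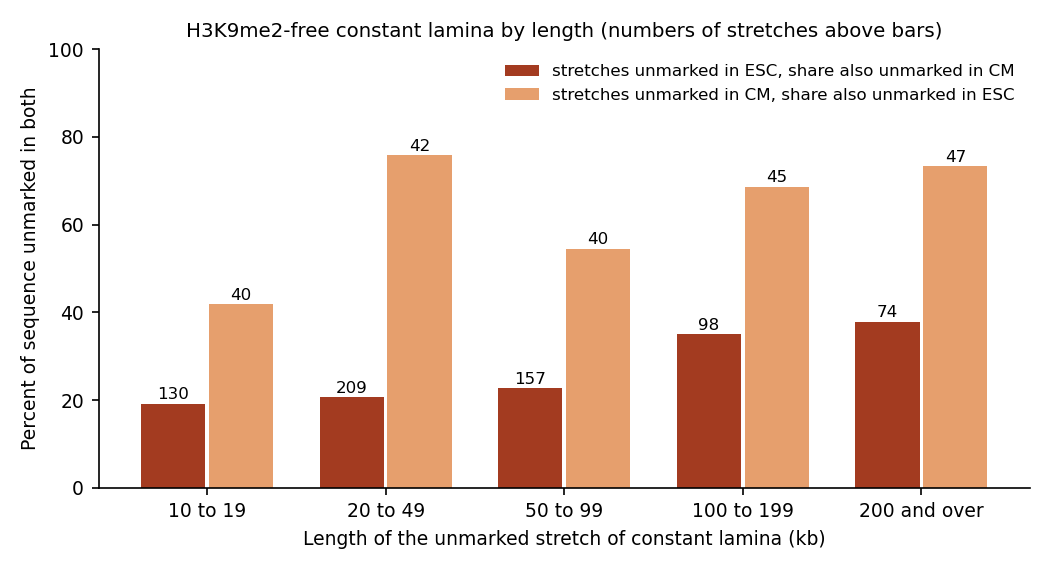
Share of unmarked constant lamina that was unmarked in both cell types (y axis, percent of sequence) by the length of the unmarked run (x axis, kb), for runs unmarked in ESC (dark red) and in CM (orange), with the number of runs above each bar. The dark red bars go from 19.2% to 37.9% with length; the orange bars have the smaller denominator, and their height is not comparable with that of the dark red bars.

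The stretches occurred on 18 of the 19 autosomes. Their share of constant lamina was 1.82 ± 0.845% (SD over 19 autosomes, which are not replicates). Chromosome 9 had the highest share, 3.72% (13 stretches, 1.43 Mb in 38.5 Mb of constant lamina), followed by chromosomes 13 (2.72%), 12 (2.67%) and 10 (2.65%). The rank of chromosome 9 rested on the group of 4 stretches at chr9:7160001-9280000, which held 68.4% of its unmarked stretch sequence. Without that group its share was 1.18%. Groups on the other autosomes were not removed, so this value was not ranked against theirs. Chromosome 13 had the most stretches, 21, with a median of only 37 kb, and chromosomes 6 (0.873%), 18 (0.898%) and 8 (0.911%) had the lowest shares above 0.

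Chromosome 14 had no stretch. Of its 55.5 Mb of constant lamina, 1 kb was unmarked in both cell types. ESC H3K9me2 left 3.60 Mb of it unmarked, a coverage of 93.5%, within the range of the other 18 autosomes (88.9% to 97.9%). CM H3K9me2 covered 99.97% of those 3.60 Mb, whereas on the other autosomes it covered 38.4% to 84.0% of the lamina unmarked in ESC, with a median of 63.6%. The chromosome was singled out after its values were seen, and no test was made.

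**Figure D5:**
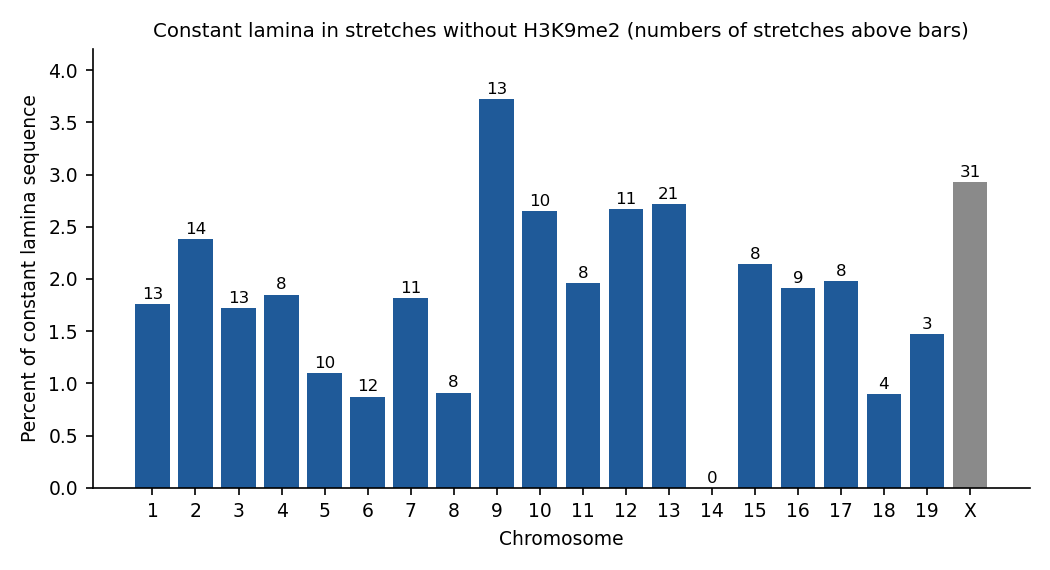
Share of constant lamina in unmarked stretches (y axis, percent) for each chromosome (x axis), with the number of stretches above each bar; X, in grey, was outside the selection. Chromosome 9 reaches 3.72% and chromosome 14 is at 0.

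The amount of sequence changed little with a minimum of 1 kb (17.85 Mb) or 20 kb (17.24 Mb) and was 13.0 Mb with a minimum of 100 kb. With only the H3K9me2 domains at or above the median score of their list, 30.6 Mb of constant lamina was unmarked in place of 17.6 Mb, and 74.0% of the stretches reached a lamina edge. With only the Lamin B domains at or above the median score, 118 stretches with 12.0 Mb were left and 31.4% reached a lamina edge.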

How the data were processed

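Lamin B and H3K9me2 ChIP-seq domains of mouse ESC and CM were analysed as 4 deposited lists. STAR, Picard and deepTools and the build mm9 are named per the submitters' processing notes, without versions. The settings g 10, automatic bins and a false discovery rate of 5% stand in the track names, per the file headers; for the program that made the domains, a name was not given in the sources used here. Each list gives domain start, end and a score, which is the authors' deposited value per domain on a scale that is not stated. Depth per library is unknown.

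Python 3.11.15 with pandas 2.3.3 and numpy 2.4.6 laid the domains on bins of 1 kb. Bin widths are the greatest common divisor of the domain edges. A stretch was at a lamina edge when the bin beside it lay outside Lamin B in ESC or CM. Wilson intervals (95%) came from scipy 1.17.1 and figures from matplotlib 3.10.9. The search was tested on simulated data with planted stretches, in which ESC and CM had the same domains and each stretch lay inside the lamina. Offset borders and stretches at a lamina edge were not simulated. Shares over any region use sequence as the denominator unless stretches are counted. No test between cell types was possible.

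Regions named are the 10 longest stretches, the 7 unmarked Lamin B domains of at least 100 kb, the 3 stretches on either side of the minimum, and groups of stretches less than 1 Mb apart, which were chosen after their values were seen. The rule also named the longest stretch of each chromosome; those not among the 10 longest are given in the closing section. The stretches and the rules were chosen with earlier results of these data known. The planned count of genes in the stretches was not run, since no annotation of mm9 was used. Alternatives are in the closing section.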

Additional observations from a re-analysis of the deposited data

Results flagged for a closer look

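Chromosome X lay outside the selection and held the same kind of sequence, which is why it is given here. It had 31 unmarked stretches of at least 10 kb with 2.90 Mb, or 2.93% of its 99.2 Mb of constant lamina, above the value of every autosome except chromosome 9. Their median length was 44 kb and 17 of 31 (54.8%, Wilson 37.8 to 70.8) reached a lamina edge. The longest, chrX:39130001-39640000, was a 510 kb hole in Lamin B domains of 9036 kb in ESC and 9130 kb in CM. Of the X lamina unmarked in ESC, 29.7% was unmarked in CM. No test was made.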

How the results depend on the processing

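All 12 alternatives were planned. The number of stretches, 184, was 101 with a minimum of 50 kb, 62 with 100 kb, 114 with H3K9me2 domains extended and Lamin B domains shortened by 1 bin together, and 118 for Lamin B domains at or above the median score. In the other 8 it was between 123 and 272. Their sequence, 17.6 Mb, was 30.6 Mb for H3K9me2 domains at or above the median score and between 12.0 and 20.5 Mb in the other 11. The share at a lamina edge, 50.0%, was 66.2% with no minimum, 74.0% and 31.4% under the score filters of H3K9me2 and Lamin B, and 60.5% after merging H3K9me2 across gaps under 50 kb, which removes short holes by construction. Raising the minimum or extending H3K9me2 also removes stretches by construction; dropping low-scoring H3K9me2 domains leaves more sequence unmarked. For the changed shares at a lamina edge the cause was not tested. With both domain ends moved by 1 bin, 114 of the 184 stretches and 74.0% of their sequence were retained. No paired analysis was possible because the libraries behind a list were not separate in it; for the same reason none of them could be omitted in turn. Depth is unknown.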

Other observations

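Part of the stretches lay near each other. Their spacing was not compared with that of other runs of constant lamina, so closeness cannot be called particular to them. Of 166 pairs of neighbours on a chromosome, 74 (44.6%, Wilson 37.2 to 52.2) were at most 1 Mb apart, while the median distance was 1540 kb. Linking neighbours within 1 Mb gave 110 groups, of which 18 had at least 3 stretches and held 65 of the 184. The group with the most stretches, 6, spanned chr17:21357001-23340000 and held 579 kb of unmarked lamina. It joined holes bounded by H3K9me2 with stretches at a lamina edge, among them a 242 kb stretch, chr17:22198001-22440000, that was a whole CM Lamin B domain without H3K9me2 inside a longer ESC domain of 1467 kb. The group with the most unmarked sequence, 980 kb in 4 stretches, was that at chr9:7160001-9280000, where 60, 590, 10 and 320 kb lay within a single Lamin B domain in each cell type. At chr15:40860001-41810000, 4 holes held 540 kb, or 56.8% of the span, lying in CM gaps of 180 and 560 kb, so that 4 ESC gaps corresponded to 2 CM gaps. Over all autosomes the 184 stretches lay in 175 ESC gaps and 147 CM gaps, so some neighbours share a gap and are not independent.

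On the chromosomes without an entry among the 10 longest, the longest stretch was chr5:86360001-86620000 (260 kb), chr16:42900001-43140000 (240 kb), chr19:27900001-28080000 (180 kb), chr18:89140001-89290000 (150 kb) and chr8:59000001-59120000 (120 kb). Those of chromosomes 1 (chr1:159071001-159335000), 6, 11, 13 and 17 are given above. The holes on chromosomes 5, 8 and 18 lay in Lamin B domains of 10719, 1791 and 5454 kb in ESC, and those on chromosomes 16 and 19 reached a lamina edge. On chromosome 16 the ESC Lamin B domain of 540 kb had no H3K9me2, while 56.4% of the CM domain of 550 kb was covered.

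Outside the lamina, chromosome 14 did not stand apart in CM H3K9me2. Of its sequence without Lamin B in either cell type, CM H3K9me2 covered 20.6%, against 11.7% to 25.4% on the other 18 autosomes. Of the part of that sequence without ESC H3K9me2 it covered 6.21%, against 2.30% to 19.3%. These are values of 1 chromosome, and no test was made.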
